A study of Rattus norvegicus with 6 samples.

Results

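The genes described here are 10 sensors of foreign or misplaced nucleic acid and their closest adaptors: the cytosolic RNA helicases Rigi, Ifih1 and Dhx58, the adaptor Mavs, the endosomal receptor Tlr3, the DNA sensor Cgas with its partner Sting1, and Aim2, Zbp1 and Eif2ak2. They were taken by gene name from the count tables, where Rigi is written Ddx58, and all 10 were found, each in 1 row, among 18077 rows. RNA sequencing of polyA RNA covered 6 libraries of cultures labelled as neonatal rat cardiomyocytes, isolated from pups of 1 to 3 days and kept in medium with serum and BrdU, which holds back fibroblasts. Of these, 3 carried the control adenovirus Ad-GFP and 3 the adenovirus Ad-RNF128, labelled as overexpressing the ubiquitin ligase RNF128. All 6 were treated with 500 µM palmitic acid for 24 h and harvested after 48 h, so both groups carry a virus and a fatty acid load, and no untreated or virus-free library was analysed here. The promoter, dose and insert species of the vectors, and whether libraries come from separate animals or cultures, are not given in the sources used here. The spread that p-values rest on is thus that among these libraries, and it may be technical. The treatment text of the labels also writes the gene as RNF28.

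Cells detect viral or displaced nucleic acid through a small set of proteins. RIG-I and MDA5, encoded by Rigi and Ifih1, bind double-stranded RNA in the cytosol and signal through MAVS on mitochondria, while TLR3 reads it in endosomes. Double-stranded DNA in the cytosol is read by cGAS, whose product activates STING, and by AIM2, which assembles an inflammasome. Apart from that of AIM2, these routes lead to type I interferon, and several of the sensor genes are themselves induced by interferon through a promoter motif, the interferon-stimulated response element (ISRE).

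RefSeq promoter sequences (build GRCr8) were at hand for 6 of the 10 genes, Ifih1, Mavs, Tlr3, Sting1, Aim2 and Eif2ak2, and 4 of them are shown because they pair promoters with and without that motif with the responses below. Each run gives the 250 bases before the start of transcription, and capitals mark the ISRE core, searched as GAAA, any 2 bases, GAAA. Ifih1 lies at chr3:67683969-67684218 (minus strand), Eif2ak2 at chr6:21940904-21941153 (plus), Aim2 at chr13:88398372-88398621 (plus) and Mavs at chr3:138904562-138904811 (plus).
Ifih1: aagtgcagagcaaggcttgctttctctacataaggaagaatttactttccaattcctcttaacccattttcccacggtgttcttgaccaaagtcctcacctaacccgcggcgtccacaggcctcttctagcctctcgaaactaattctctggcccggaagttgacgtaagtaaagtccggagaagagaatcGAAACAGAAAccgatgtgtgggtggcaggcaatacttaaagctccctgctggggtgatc
Eif2ak2: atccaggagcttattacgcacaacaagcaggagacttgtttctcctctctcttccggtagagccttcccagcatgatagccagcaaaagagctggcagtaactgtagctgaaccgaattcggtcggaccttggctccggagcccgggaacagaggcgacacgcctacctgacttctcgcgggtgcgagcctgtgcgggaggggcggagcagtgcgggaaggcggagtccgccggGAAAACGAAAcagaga
Aim2: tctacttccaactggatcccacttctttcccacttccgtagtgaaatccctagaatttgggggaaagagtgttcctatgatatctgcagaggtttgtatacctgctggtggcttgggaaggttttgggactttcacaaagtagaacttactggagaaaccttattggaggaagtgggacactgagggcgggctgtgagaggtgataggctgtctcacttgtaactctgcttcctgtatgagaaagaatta
Mavs: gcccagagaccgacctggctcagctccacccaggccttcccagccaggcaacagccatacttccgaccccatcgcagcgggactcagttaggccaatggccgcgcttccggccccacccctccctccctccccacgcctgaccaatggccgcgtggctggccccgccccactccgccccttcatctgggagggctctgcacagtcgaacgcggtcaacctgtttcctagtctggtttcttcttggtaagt
Each search covered both strands of these 250 bases and the 50 after the start. The ISRE core stood 1 time in Ifih1, beginning 59 bases before the start, and 1 time in Eif2ak2, beginning 16 bases before it, and these letters were not in the window of the other 4 genes. None of the 6 windows held the letters of a GAS element (TTCNNNGAA) or of a kappaB site (GGG, any 2 bases, TTTCC, or GGG, any 3 bases, TCCC). Of all 33469 promoters of this length, 3.92% held the ISRE core, 8.87% the GAS letters and 6.91% the kappaB letters.

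Library totals ran from 16352844 to 21708973 counts. Ad-GFP replicate 1 stood apart, since its Spearman correlation with any other library was 0.776 to 0.818 and the 5 others correlated at 0.965 to 0.989 with one another, and each sensor gene is given with and without it. For the other pathway genes the call is that without it, with the value over all 6 libraries beside each named gene that passed. Rat Rnf128 itself had 0, 2 and 1 counts in Ad-GFP and 1, 3 and 1 counts in Ad-RNF128, so these counts do not bear out the label, and directions refer to the libraries labelled Ad-RNF128. The cardiomyocyte label rested on few transcripts. Of 10 listed markers 9 were in the tables, Myh6, a heavy chain of cardiac myosin, was at 0.104 to 16.0 CPM (counts scaled to 1000000 per library), and the list summed to 71.2 CPM in Ad-GFP replicate 1, 392 and 394 CPM in replicates 2 and 3 and 35.0 to 115 CPM in Ad-RNF128. Tnnt2, cardiac troponin T, carried that difference, at 342 and 350 CPM in Ad-GFP replicates 2 and 3 and 34.0 to 57.4 CPM in Ad-RNF128. Ad-RNF128 replicate 3 differed from the other libraries in the remaining markers, with 2 counts of Myh6, 5 of Actc1 and 0 of Nppa, where each other library had at least 235, 210 and 59. The 6 skeletal muscle markers in the tables summed to 74.1, 106 to 108, and 42.8 to 44.3 CPM in the same order. Among them Myod1 was at 25.3 to 63.3 CPM, above Myh6 in every library, and Ckm at 0.260 to 1.53 CPM. Myog was at 33.0 and 35.4 CPM in Ad-GFP replicates 2 and 3 and 4.88 to 7.43 CPM in Ad-RNF128. The 7 smooth muscle and pericyte markers summed to 4769, 5731 to 6315, and 5331 to 5925 CPM. The 9 fibroblast markers summed to 3243, 38416 to 40049, and 10538 to 11450 CPM in the same order. Col1a1, Col1a2 and Col3a1 carried most of that sum, with Col1a1 at 1100, 17690 to 18266, and 3659 to 4016 CPM. Thy1 went the other way, at 224 and 251 CPM in Ad-GFP replicates 2 and 3 and 287 to 305 CPM in Ad-RNF128. Dcn, Lum, Pdgfra and Tcf21 stayed at or under 2.86 CPM in every library.

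Against Ad-GFP replicates 2 and 3, the libraries labelled Ad-RNF128 had higher levels of 9 of the 10 sensor genes, and Mavs was the exception. The call rate behind that count was high, since edgeR called 28.9% of all 13173 tested genes as higher (28.0% as lower and 56.9% in either direction). The median log2 change of the 10 genes was 2.18, against 0.01 for all tested genes. Dhx58, Aim2 and Zbp1 passed the low-count filter only through the Ad-RNF128 libraries, so they had to be high there, and they raise that median. The 7 others had log2 changes from -0.20 (Mavs) to 3.11 (Ifih1), and 6 of them rose. Without Ad-RNF128 replicate 3 as well, the same test called 9 higher and 1, Mavs, lower. DESeq2 also called 9 of the 10, beside 25.1% of all genes as higher, and all 10 had an unadjusted edgeR p under 0.05, as did 61.4% of all genes. Over all 6 libraries edgeR called none of the 10 genes and 0.0% of 12863 genes, while 3 of the 10 and 5.77% of all genes had an unadjusted p under 0.05.

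**Figure D1:**
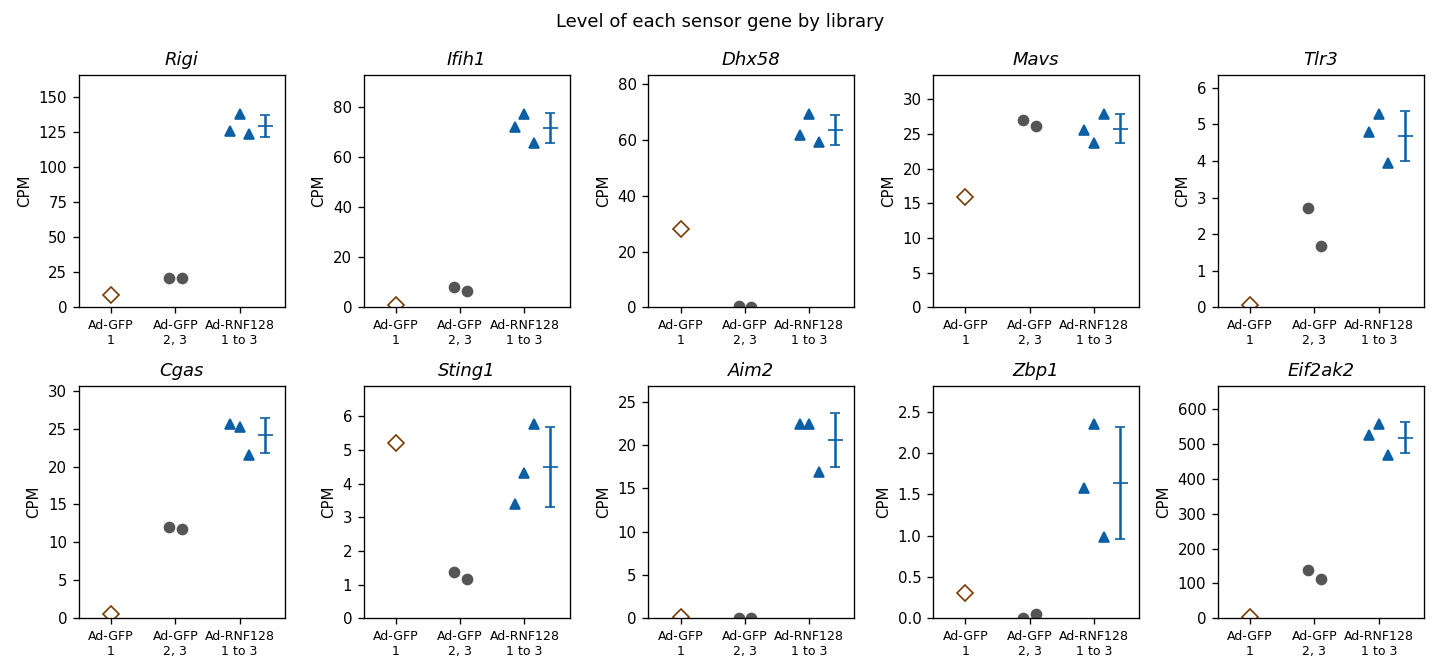
Level of each sensor gene in CPM (vertical axis from 0, its own scale per panel) in Ad-GFP replicate 1 (open diamond), Ad-GFP replicates 2 and 3 (circles) and the 3 Ad-RNF128 libraries (triangles, with mean and SD, n = 3). Ad-GFP replicate 1 lies below the other controls for Rigi, Ifih1, Mavs, Tlr3, Cgas and Eif2ak2 and above them for Dhx58 and Sting1.

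The 3 RIG-I-like helicases were all called higher without Ad-GFP replicate 1, with log2 changes that differed. Differences between these genes were not tested. Rigi, the sensor of short RNA with a triphosphate end, had 9.11, 21.0 and 21.1 CPM in control replicates 1, 2 and 3, in that order, and 126, 138 and 123 CPM in replicates 1, 2 and 3 of Ad-RNF128. Every Ad-RNF128 library was above every control, and the log2 change was 2.46 ± 0.08 (SE) without Ad-GFP replicate 1 (edgeR adjusted p = 3.90e-12) and 2.45 ± 0.32 with it (adjusted p = 0.129). Under the TMM scaling of this fit, Rigi was thus the member whose change moved least when that library was left out. With library totals alone it was not, at 2.61 without that library and 2.91 with it, where Mavs had -0.05 and 0.16. Ifih1, which encodes MDA5, the sensor of long double-stranded RNA, had 1.04, 8.25 and 6.70 CPM in the 3 controls against 72.2, 77.4 and 65.5 CPM. Its groups did not overlap either, and its log2 change was 3.11 ± 0.11 (edgeR adjusted p = 5.76e-12), or 3.46 ± 0.56 over all 6 libraries (adjusted p = 0.167).

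Dhx58 encodes LGP2, the helicase without a signalling domain that tunes the other 2. It was close to the floor in 2 controls, with 10 counts (0.554 CPM) in Ad-GFP replicate 2 and 4 (0.188 CPM) in replicate 3, against 61.7, 69.4 and 59.3 CPM under Ad-RNF128. It passed the low-count filter only through Ad-RNF128, so it had to be high there. Its log2 change was 7.30 ± 0.20 (edgeR adjusted p = 4.53e-13), and the counts pooled per group differed 179-fold (95% counting interval 107 to 328). Against Ad-GFP replicate 2 alone that ratio was 115 (62.5 to 240.2), and against replicate 3 alone 340.04 (133 to 1249). Ad-GFP replicate 1, however, held Dhx58 at 27.9 CPM (457 counts), and with that library the log2 change was 1.39 ± 1.88 (adjusted p = 0.892). All 3 Ad-RNF128 libraries were still above it, by a ratio of mean CPM of 2.27. The size of the Dhx58 difference therefore depends on which control is used far more than that of Rigi or Ifih1.

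Mavs, the gene of the adaptor through which RIG-I and MDA5 signal, did not share the rise. The controls held it at 15.9, 27.0 and 26.2 CPM and the Ad-RNF128 libraries at 25.6, 23.8 and 27.9 CPM, so the groups overlapped with and without Ad-GFP replicate 1. The log2 change was -0.20 ± 0.09 (edgeR adjusted p = 0.065), with a 95% interval from the SE of -0.37 to -0.03, and -0.38 ± 0.34 over all 6 libraries (adjusted p = 0.772). Without Ad-RNF128 replicate 3 as well, the 5-library call changed (log2 change -0.25, adjusted p = 0.0286).

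Tlr3, the endosomal receptor for double-stranded RNA, was low throughout. Ad-GFP held it at 0.0612, 2.71 and 1.69 CPM (1, 49 and 36 counts) and Ad-RNF128 at 4.80, 5.30 and 3.95 CPM. The groups did not overlap, and the log2 change was 0.95 ± 0.23 (edgeR adjusted p = 0.00234), or 1.42 ± 0.83 over all 6 libraries (adjusted p = 0.681).

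Without Ad-GFP replicate 1, Cgas and Sting1 had smaller log2 changes than the 3 RNA helicases, a difference between genes that was not tested. It did not divide DNA from RNA sensors, since Aim2, for DNA, was at least 270-fold higher and Tlr3, for RNA, had 0.95. Cgas, whose enzyme makes the messenger cGAMP on binding DNA, was found at 0.550, 11.96 and 11.7 CPM among the controls and at 25.6, 25.2 and 21.5 CPM under Ad-RNF128. Its groups did not overlap. Its log2 change was 0.87 ± 0.10 (edgeR adjusted p = 4.84e-06), the smallest of the 9 that passed, and 1.36 ± 0.80 over all 6 libraries (adjusted p = 0.681). Sting1, the receptor for cGAMP on the endoplasmic reticulum, stood at 5.20, 1.38 and 1.17 CPM in the controls against 3.39, 4.33 and 5.77 CPM. Without Ad-GFP replicate 1 the groups separate, with a log2 change of 1.67 ± 0.27 (edgeR adjusted p = 9.71e-05). With it they overlap, since that control exceeds 2 of the 3 Ad-RNF128 libraries, and the log2 change of -0.24 ± 0.98 (adjusted p = 0.981) has the other sign. With library totals alone, Sting1 had a log2 change of 0.80 over the 6 libraries.

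Aim2 and Zbp1 were close to undetected in the controls. Both passed the low-count filter only through Ad-RNF128, so they had to be high there, and their p-values add no separate support. Aim2, which binds cytosolic DNA and recruits the adaptor Pycard, had 3, 0 and 0 control counts against 383, 486 and 326 counts, or 22.4, 22.4 and 16.9 CPM. Against Ad-GFP replicates 2 and 3 it was at least 270-fold higher, on a floor of 3 counts over the group (edgeR adjusted p = 1.13e-10). Over all 6 libraries the pooled counts differed 382-fold (counting interval 131 to 1857), at an edgeR adjusted p of 0.2. Zbp1, a sensor of left-handed nucleic acid that triggers necroptosis, had 5, 0 and 1 control counts against 27, 51 and 19 counts. Pooled counts differed 65.8-fold without Ad-GFP replicate 1 (counting interval 11.5 to 2625), at an edgeR adjusted p of 3.03e-05. Against Ad-GFP replicate 3 alone the ratio was 35.6 (6.25 to 1422), and against replicate 2 alone, which has 0 counts, the floor of 3 in that library makes Zbp1 at least 10.1-fold higher. Against all 3 controls they differed 15.5-fold (6.88 to 43.3), at an adjusted p of 0.681. Even in Ad-RNF128, Zbp1 stayed at 0.987 to 2.35 CPM.

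Eif2ak2 encodes PKR, a kinase that binds double-stranded RNA and halts translation by phosphorylating eIF2alpha. Its control levels were 2.26, 137 and 112 CPM, against 528, 557 and 470 CPM. All 3 Ad-RNF128 libraries were above every control, and the log2 change was 1.90 ± 0.09 (edgeR adjusted p = 1.64e-10), or 2.45 ± 1.07 with Ad-GFP replicate 1 (adjusted p = 0.681). Without Ad-GFP replicate 1, the ISRE core printed above for Ifih1 and Eif2ak2 thus stands in 2 genes that rose. Of the 4 genes without those letters in their window 3 rose (Tlr3, Sting1 and Aim2) and Mavs did not, where 28.9% of all tested genes rose. Aim2 passed the low-count filter only through Ad-RNF128, and Sting1 had the other sign over all 6 libraries, where no gene was called. So few genes cannot tell whether the motif matters.

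**Figure D2:**
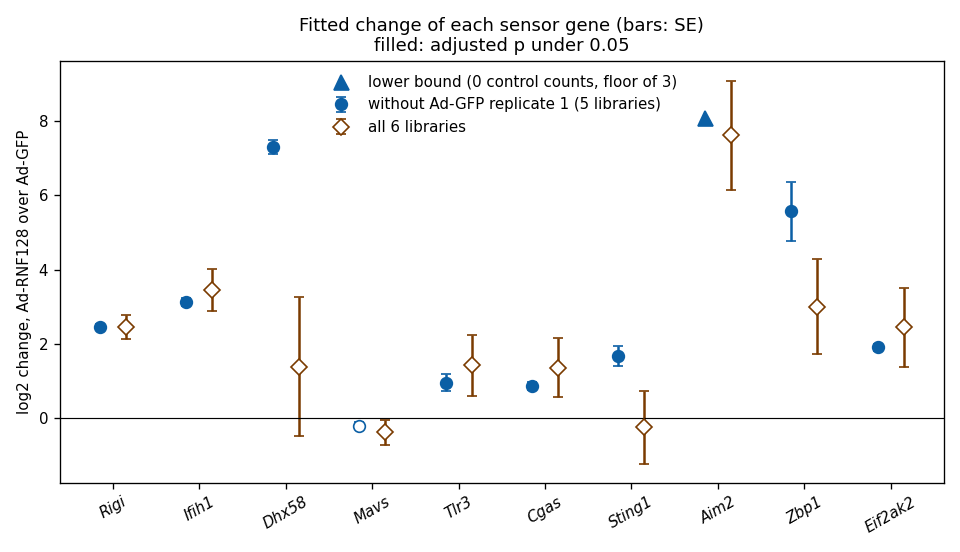
Fitted log2 change of each sensor gene (Ad-RNF128 over Ad-GFP) without Ad-GFP replicate 1 (blue circles) and over all 6 libraries (brown diamonds), with SE bars and filled symbols for an adjusted p under 0.05; Aim2 without that library is drawn at its lower bound (triangle). Under this TMM scaling the values of Rigi nearly coincide, while those of Dhx58 lie far apart and those of Sting1 on either side of 0.

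Groups that do not overlap were also counted in CPM, which scales by library totals alone and not by TMM. The background was high, and over all 6 libraries edgeR called none of the 10 genes. All 3 Ad-RNF128 libraries exceeded all 3 controls for 8 of the 10 genes, Mavs and Sting1 being the others, where 30.4% of all 12863 tested genes did so, and none of the 10 lay wholly below the controls (3.59% of all genes). Without Ad-GFP replicate 1 it was 9 of 10, against 48.7% of 13173, and again none lay wholly below (23.6% of all genes). Over all 6 libraries, Dhx58, Tlr3, Aim2 and Zbp1 passed the low-count filter only through Ad-RNF128, which favours such a gap. Without Ad-GFP replicate 1 this held for Dhx58, Aim2 and Zbp1. Of the 6 other genes over all 6 libraries, Rigi, Ifih1, Cgas and Eif2ak2 separated. For each of the 8 genes the exact two-sided permutation p on mean CPM was 0.1, the smallest that 3 against 3 libraries allow. That value follows from the separation itself. In the same test p was 0.3 for Sting1 and 0.7 for Mavs.

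Ad-GFP replicate 1 differed from the other controls in the sensor genes at about the rate of all genes. Against the mean of replicates 2 and 3, this library was lower by at least 2-fold for 5 of them, Rigi, Ifih1, Tlr3, Cgas and Eif2ak2, and higher by at least 2-fold for Dhx58 and Sting1. The same held for 58.7% (lower) and 19.4% (higher) of all tested genes. The ratio of pooled counts was 0.0183 for Eif2ak2 (95% counting interval 0.0128 to 0.0252), 0.0283 for Tlr3 on 1 count (0.000709 to 0.162) and 0.0465 for Cgas (0.0211 to 0.0891). It was 78.6 for Dhx58 (46.4 to 145) and 4.09 for Sting1 (2.85 to 5.93). Mavs was at 0.599 (0.521 to 0.686), and Aim2 and Zbp1 had too few control counts to place. A control with low Eif2ak2 and Ifih1 thus had high Dhx58.

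Of genes with a mean of at least 5 CPM, 10254 in all, the nearest pattern over the 6 libraries was sought for each of the 7 sensor genes above that level, by the root mean square difference of centred log2(CPM + 0.5). Rigi was nearest to Shc4 (0.11), Ifih1 to Trim21 (0.12), Aim2 to Tmprss2 (0.12), Cgas to Etfrf1 (0.05), Mavs to Mlec (0.05), Eif2ak2 to Serpinb9 (0.36) and Dhx58 to Gsta1 (0.44). Trim21, an interferon-inducible antibody receptor and ubiquitin ligase, had 0.245, 4.93 and 3.56 CPM in the controls against 37.5, 40.7 and 32.0 CPM. No sensor gene was nearest to another one. The closest pair, Rigi and Ifih1, differed by 0.65, where the median over all these genes was 1.42 from Rigi and 1.72 from Ifih1. By distance, the nearest other sensor ranked 34 for Ifih1, 40 for Aim2, 69 for Dhx58 and 87 for Rigi. It ranked 616 for Eif2ak2, 4568 for Cgas and 7935 for Mavs. These distances are a description over 6 libraries that include Ad-GFP replicate 1.

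The remaining genes of these pathways were taken from 7 lists of 111 genes, of which 10 were not analysed here and 93 were tested without Ad-GFP replicate 1. Of those, 33 rose (35.5%) and 26 fell (28.0%), close to the 28.9% and 28.0% of all tested genes, and the median log2 change was 0.06. Ifnb1 and Dnase1l3 passed the low-count filter only through Ad-RNF128, and of the 91 others 31 rose. Library totals alone gave 47 higher and 15 lower, since that scaling moves the median of all genes from 0.01 to 0.17, and log2 changes of about that size keep no fixed direction. Over all 6 libraries edgeR called 0 of 92 (DESeq2 called 6 higher and 1 lower), and 21 of the 59 called genes, 10 higher and 11 lower, had a log2 change of the other sign there.

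Of 16 tested genes that carry the signal from the adaptors to interferon, 10 rose, 0 fell and 6 did not pass, where 28.9% of all tested genes rose and 28.0% fell. Their median log2 change was 0.39, and none of the 16 passed over all 6 libraries. Ifnb1, the interferon-beta gene, had 0 counts in all 3 controls and 110 counts in all in Ad-RNF128, at 1.81, 2.63 and 1.14 CPM. It was at least 24.9-fold higher than Ad-GFP replicates 2 and 3 on the floor of 3 counts over the group (at least 35.2-fold against all 3), with edgeR adjusted p values of 1.44e-05 and 0.176. As it passed the filter only through Ad-RNF128, it had to differ, and of the 15 other genes 9 rose. The kinase genes Tbk1 and Ikbke had log2 changes of 0.26 ± 0.08 and 0.67 ± 0.09 that passed (0.80 ± 1.04 and 0.55 ± 0.32 over all 6 libraries). Irf3, the transcription factor they phosphorylate, passed at 0.49 ± 0.07, but turned to -1.50 ± 0.99 over all 6 libraries, since Ad-GFP replicate 1 held it at 134 CPM, above the 47.1 to 50.7 CPM of Ad-RNF128. Traf3, which links MAVS to the kinases, did not pass (0.06 ± 0.09, edgeR adjusted p = 0.556). Nlrc5, a regulator of class I antigen presentation genes, had the smallest p of the list and rose by 4.26 ± 0.16 on the log2 scale (3.23 ± 0.73 over all 6).

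Of 18 tested cofactors of the RNA helicases, 3 rose and 13 fell, with a median of -0.23, where 28.9% of all tested genes rose and 28.0% fell. With library totals alone 4 rose and 6 fell, and 8 of the 13 had the other sign over all 6 libraries. Trim25, a ubiquitin ligase that activates RIG-I, rose by 0.68 ± 0.08 (0.77 ± 0.32 over all 6). Rnf135, another RIG-I ligase, had a log2 change of -0.21 ± 0.07 that did not pass with library totals alone (0.05 ± 0.41 over all 6). Rnf122, a ligase that marks RIG-I for degradation, had the smallest p and fell by 1.26 ± 0.10 (-1.66 ± 0.43 over all 6).

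Of 8 tested genes of endosomal Toll-like receptors and their adaptors 2 rose and 1 fell, with a median of 0.09, and the 25.0% that rose is near the 28.9% of all tested genes. Unc93b1, which escorts these receptors to endosomes, and Myd88, an adaptor, had log2 changes of 0.03 ± 0.08 and 0.14 ± 0.08 that did not pass. Hsp90b1, the chaperone of Toll-like receptors, fell by 0.50 ± 0.06 (0.02 ± 0.85 over all 6). Tlr7 had 0 counts in every control and at most 0.0921 CPM elsewhere.

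Among 17 genes that handle cGAMP or STING or bind DNA, 2 rose and 7 fell (median -0.07), beside 28.9% and 28.0% of all tested genes, and 6 rose and 3 fell with library totals alone. Enpp1, which breaks down cGAMP, had a log2 change of -0.24 ± 0.07, not called with library totals alone (0.22 ± 0.69 over all 6). Slc19a1, a folate carrier that also imports cyclic dinucleotides, fell by 0.93 ± 0.09 (-1.36 ± 0.43 over all 6). Nucleases and RNA editors that keep self nucleic acid from the sensors included 7 that rose and 3 that fell of 14 tested (median 0.17), beside the same shares of all genes. One of the 7, Dnase1l3, had 3 control counts and passed the filter only through Ad-RNF128. Adar, which edits double-stranded RNA, rose by 1.46 ± 0.07, the DNA exonuclease gene Trex1 by 1.15 ± 0.10 and Samhd1, which depletes nucleotides, by 0.29 ± 0.11 on the log2 scale. Over all 6 libraries the log2 change of Adar was 1.49 ± 0.31 and that of Samhd1 0.60 ± 0.46. Trex1 turned to -1.29 ± 1.12 there, as Ad-GFP replicate 1 held it at 66.3 CPM, above the 24.8 to 28.5 CPM of Ad-RNF128.

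Downstream of AIM2 and ZBP1, 6 of 9 tested genes rose and 0 fell, with a median of 0.62, where 28.9% of all tested genes rose and 28.0% fell. The necroptosis genes Mlkl, which encodes the pore-forming effector, and Ripk3, its kinase, rose by 1.44 ± 0.07 and 0.60 ± 0.08 (1.76 ± 0.49 and 0.53 ± 0.31 over all 6). The inflammasome adaptor Pycard had 18.7, 3.77 and 4.41 CPM in the controls against 9.36, 8.89 and 8.52 CPM. It rose by 0.96 ± 0.15 without Ad-GFP replicate 1, and its 6-library log2 change of -1.09 ± 1.01 did not pass. Casp1, the inflammasome protease, was too low to test, at most 0.645 CPM in any library, and so were the genes of its substrates, Il1b and Il18.

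In the PKR pathway 3 of 11 tested genes rose (27.3%) and 2 fell (18.2%), with a median of -0.06, and neither share is above that of all tested genes (28.9% and 28.0%). Eif2s1, the eIF2alpha substrate, rose by 0.39 ± 0.07 (0.73 ± 0.49 over all 6), while the PKR activator Prkra (-0.10 ± 0.07) and the PKR inhibitor Dnajc3 (-0.03 ± 0.07) did not pass. The other eIF2alpha kinase genes differed from Eif2ak2 in direction or call: Eif2ak4 (-0.69 ± 0.07) and Eif2ak3 (-0.55 ± 0.08) fell, and Eif2ak1 (-0.13 ± 0.07) did not pass. Over all 6 libraries Eif2ak4 was at -0.16 ± 0.91 and Eif2ak3 at -0.02 ± 0.89.

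**Figure D3:**
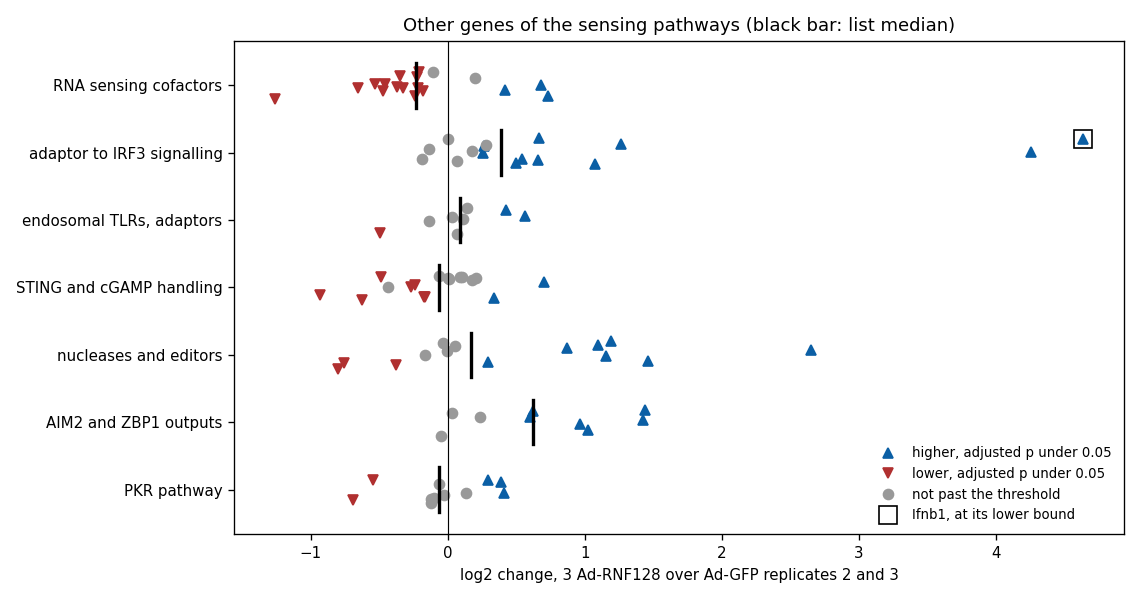
Log2 change of each tested gene of the 7 pathway lists, Ad-RNF128 over Ad-GFP replicates 2 and 3 (horizontal axis), with blue triangles for higher and red triangles for lower at an adjusted p under 0.05, grey circles for the rest and a black bar for the list median. Ifnb1, boxed, is drawn at its lower bound, and the cofactors of RNA sensing are the list with the most genes below 0.

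Markers of cells rich in these sensors were measured beside them. Of 14 macrophage and monocyte markers 10 were under 1 CPM in every library. Ptprc had 0 counts in every control and at most 0.156 CPM in Ad-RNF128. The list summed to 35.7 CPM in Ad-GFP replicate 1, 17.3 and 18.4 CPM in replicates 2 and 3, and 23.5 to 24.3 CPM in Ad-RNF128, most of it from Cd14. Csf1r, the macrophage growth factor receptor, had 7 counts in Ad-GFP replicate 2 and 10 in replicate 3 against 38, 58 and 38 counts (0.388 and 0.469 against 1.97 to 2.67 CPM). Cd68 had 4 and 8 against 12, 24 and 17 counts. The 5 dendritic cell markers in the tables summed to 11.4, 15.4 to 19.1, and 42.3 to 44.7 CPM in the same order. Most of that difference came from Itgax, at 0.222 and 0.422 CPM in Ad-GFP replicates 2 and 3 and 25.3, 28.0 and 25.4 CPM in Ad-RNF128, while Flt3 and Clec9a stayed under 0.2 CPM. The 5 lymphocyte markers in the tables summed to 0.978 to 2.20 CPM over all libraries. The 8 endothelial markers summed to 166 CPM in Ad-GFP replicate 1, 25.2 and 26.4 CPM in replicates 2 and 3, and 39.3 to 40.2 CPM in Ad-RNF128. Egfl7 carried that sum (160 CPM, 20.2 and 21.6 CPM, and 32.0 to 32.4 CPM), and 6 of the 8 were under 1 CPM in every library. The part of these cells in the sensor levels was not tested, and in bulk RNA fewer cells of a type and less RNA per cell cannot be told apart.

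Across all genes, genes with the ISRE core were called higher in a larger share than genes without it. Of 13109 tested gene names, 9319 matched a promoter, and 265 of these held the ISRE core. Among the 265, edgeR called 123 (46.4%) as higher without Ad-GFP replicate 1, against 2610 of 9054 (28.8%) without those letters. The shares were 32.6% with and 29.1% without the GAS letters, and 33.4% and 29.0% for the kappaB letters. Genes that passed the low-count filter only through Ad-RNF128, and so had to be high there, were not set apart in these shares. Genes are not independent, so no test was made, and over all 6 libraries no gene was called.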

How the data were processed

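Counts of reads per gene, 1 deposited table per library, were made by the authors using HTSeq 0.13.5 after HISAT2, on build mRatBN7.2, per the submitters' processing notes. No source used here states the strand setting, so reads of overlapping or antisense genes may be mixed. One column is an expected count by its form, since 1 deposited value in Ad-GFP replicate 1 was not whole; it was rounded. Repeated IDs (106 rows) stayed separate features.

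CPM is a count times 1000000 over the library total. Tests used edgeR 4.0.16 in R 4.3.3 on all genes: filterByExpr, TMM, a quasi-likelihood F-test, Benjamini-Hochberg adjustment, threshold 0.05. The SE comes from the log2 change and its F statistic. Comparisons used all 6 libraries, or 5 without Ad-GFP replicate 1. Alternatives included DESeq2 1.42.0 and limma-voom (limma 3.58.1). The fits were also run on simulated data, with an outcome that is not given here. Counting intervals are exact, at 95%, and with the floor of 3 counts cover counting error only. Promoters were matched by symbol. No replicate pair agreed within sampling noise.

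Members, lists, comparisons and the rule for named genes were chosen with earlier results of these data known. The rule names all 10 sensors, fixed partners in each list, the smallest p per list and the nearest pattern. Of the fixed partners, Ticam1 and Ppp1r15a were not analysed here.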

Additional observations from a re-analysis of the deposited data

How the results depend on the processing

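Ad-GFP replicate 1 decides the calls. Over all 6 libraries edgeR called 0 genes, against 8 with unadjusted library totals, 14 by limma-voom, 386 by DESeq2, and 0 to 7501 when each library was left out in turn, 7501 being without Ad-GFP replicate 1. The sensor genes called were 0, with 3 by DESeq2 (Rigi, Ifih1 and Aim2, where DESeq2 called 1.9% of genes as higher) and 0 to 9 on leaving out a library. The other pathway genes called were 0, with 7 by DESeq2 and 0 to 59 on leaving out a library. In this fit Mavs turned to 0.16 with library totals alone, and Sting1 to 0.80 on library totals, to 0.53 by limma-voom and to 0.67 with the replicate block. Leaving out each library in turn gave Sting1 values of -0.71 to 1.67, the highest without Ad-GFP replicate 1. The cause was not tested, and the TMM factor was 0.47 in that library and between 1.075 and 1.22 elsewhere.

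Without Ad-GFP replicate 1, 118 of 119 refits of single sensor genes kept their direction and side of the threshold, Mavs without Ad-RNF128 replicate 3 being the exception. Asking for a log2 change of at least 1 left 1601 of 7501 genes and 13 of 59 pathway genes. With library totals alone 5367 genes were higher and 2409 lower (69% higher, against 50.8%). Zbp1 was not tested under the stricter filter.

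The replicate block called 0 genes over 6 libraries and 7795 without Ad-GFP replicate 1. Same-numbered deviations from the group means correlated at -0.187, 0.0209 and -0.151, and differently numbered ones at -0.177 to 0.193. The control means include Ad-GFP replicate 1, so these values cannot tell whether replicate numbers pair the libraries. With 14, 1 and 0 control counts for Dhx58, Zbp1 and Aim2 in Ad-GFP replicates 2 and 3, depth limits the size of their differences.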
